A study of Mus musculus with 14 samples.

Results

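The genes described here encode the interstitial extracellular matrix: fibril-forming and other collagen chains, small proteoglycans, elastic fibre proteins, adhesive glycoproteins, and the enzymes and the chaperone that process and cross-link them. They were chosen by name, as 44 listed genes of the 35271 in the table, and all 44 had a row. They were followed across 14 single cells labelled as mesangial cells of the kidney glomerulus, which came from glomeruli of 1 wild-type male mouse at 8 weeks of age, of strain C57BL/6 in the series text and spelled C56BL/6 in the sample labels. Beads and a magnet served to collect the glomeruli, which were digested to single cells and loaded on a Fluidigm C1 instrument, a microfluidic device that captures single cells and makes cDNA from each. All cells share 1 animal, genotype and protocol and form 1 group, so there is no comparison between groups, and all values describe these cells only. Cells are named by their titles, GL_M_ and a number.

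Interstitial matrix is assembled outside the cell from parts that must be made together. Fibrillar collagens are triple helices of alpha chains, hydroxylated and folded in the endoplasmic reticulum with the help of Serpinh1, and joined outside the cell by lysyl oxidases. Small leucine-rich proteoglycans such as biglycan and decorin bind collagen fibrils, and fibrillins form the microfibril scaffold on which elastin is laid down. In a healthy kidney fibroblasts of the interstitium are the usual source of fibrillar collagen, whereas the mesangium is rich in fibronectin and basement membrane collagens and gains interstitial collagens in scarring glomerular disease.

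Values are given as RPKM, which divides a gene's reads by its length and by the total reads of that cell, so levels of different genes are compared per length. Detection means an RPKM of 1 or more. The table gives no counts, but the steps of its low values gave read totals of 6598181 to 23816635 per cell, at which 3 reads on 1 kb equal an RPKM of 0.126 to 0.455. Of 9 mesangial markers 6 to 8 were at 10 or more in each cell, with summed RPKM of 6981 to 23018, and Tbx18 was listed at 0 in all cells. Gata3, Serpine2, Ptn and Agtr1a were detected in all 14 cells. Pdgfrb was below 1 in GL_M_29 (0.759) and GL_M_30 (0.493), Itga8 in GL_M_51 (0.650), and Fhl2 (0.558) and Des (0) in GL_M_6. The marker lists were chosen with earlier results of these data known, so these counts are no independent check of cell identity. A pair of cells stood apart. GL_M_30 had 10 of 13 endothelial markers at 10 or more, against 0 to 5 elsewhere, and GL_M_55 had 5 of 12 podocyte markers, against 0 to 3. Of the fibroblast markers that are not in the matrix list, Cd34 was at 10 or more in 11 cells, Pdgfra in 7, and Ly6a and Pi16 in 1 each, while Dpt, Clec3b and Scara5 stayed below 1 in all 14. The summed RPKM of all 11 fibroblast markers ran from 0.407 to 1058. Markers of the proximal tubule (8) and of the distal tubule and collecting duct (6) were below 1 in all cells.

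Among the 44 listed genes the proteoglycan gene Bgn had the highest RPKM in most of these cells. Most other listed genes were present in a few cells or in none. Of the 44 genes 35 had a value above 0 in some cell (79.5%), against 42.9% of all genes in the table and 55.7% of the 21396 protein-coding genes. Of the 44, 21 were detected in at least 1 cell (47.7%), against 29.2% of all genes and 41.8% of protein-coding genes. An RPKM of at least 10 was reached in some cell by 17 genes (38.6%, against 22.3% of all genes and 33.9% of protein-coding genes) and in 3 or more cells by 10 (22.7%, against 9.85% and 15.5%). Bgn alone was detected in every cell, 2.27% of the list, against 0.454% of all genes and 0.701% of protein-coding genes. The other 23 genes stayed below 1 throughout, and 9 of them, Col5a3, Col14a1, Col16a1, Fmod, Prelp, Fbn2, Fbln1, Mfap4 and Loxl1, were listed at 0 in all 14 cells. A count of 0 of 14 cells allows a share of up to 23.2% of such cells at an RPKM of 1 or more (exact Clopper-Pearson, 95%). The count of 21 was the same without GL_M_30 and without GL_M_55.

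**Figure D1:**
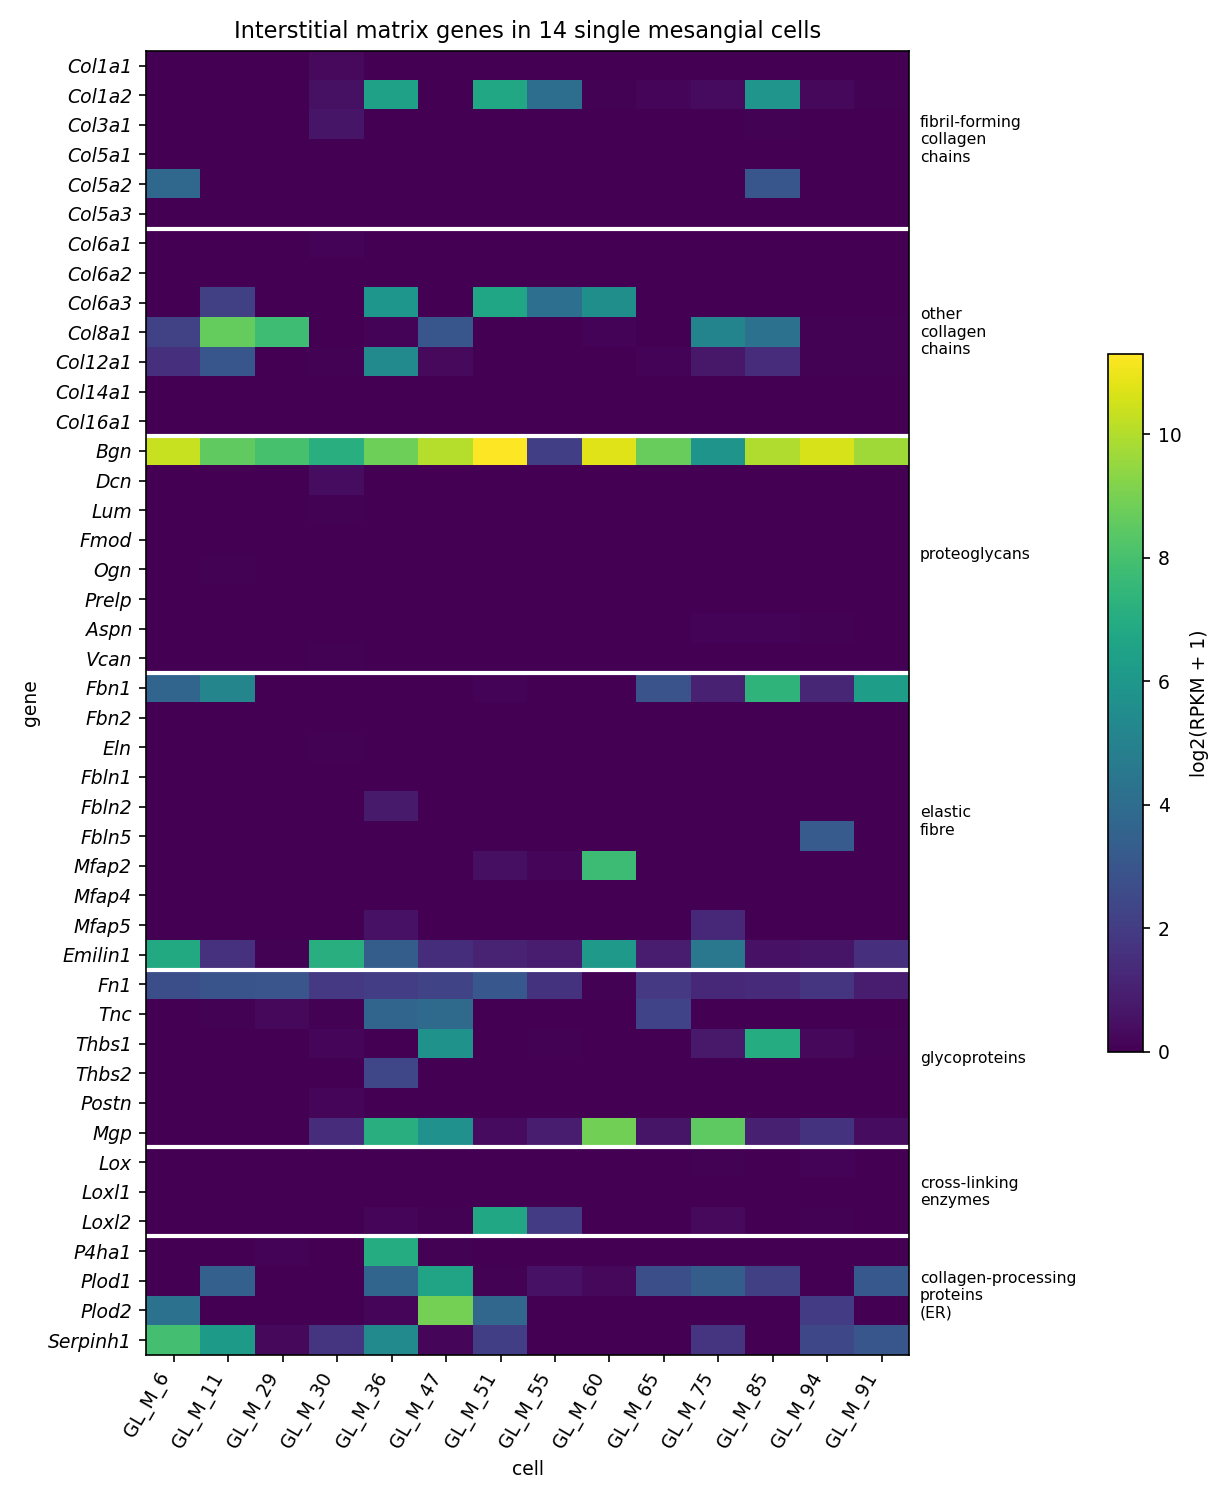
Heat map of log2(RPKM + 1) for the 44 genes (rows, grouped by role) in the 14 cells (columns); lighter colours are higher levels. Bgn is the only row with colour in every column, 23 rows stay below an RPKM of 1, and most other rows are lit in a few cells only.

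Fibril-forming collagen was represented by single chains. Of the 6 chains listed, Col1a2 and Col5a2 were detected in some cell, and Col1a1, Col3a1, Col5a1 and Col5a3 in none. That is 33.3% of these chains, against 41.8% of protein-coding genes and 29.2% of all genes. Col1a2, the alpha 2 chain of collagen I, was at an RPKM of 108 in GL_M_51, 87.6 in GL_M_36, 59.4 in GL_M_85 and 15.8 in GL_M_55. It was at 0.420 or less in the other 10 cells and listed at 0 in 4 of them, so the high and the low cells were separated by a wide gap. A share of 4 of 14 cells has an interval of 8.39% to 58.1%. Col1a1, the alpha 1 chain that normally supplies most of the collagen I helix, was listed at 0 in all 4 of those cells. There 3 reads would equal an RPKM of 0.0240 to 0.0602 on its whole annotated exon length, and more if a shorter length was used. Its only value above 0 was 0.220 in GL_M_30, at most 18.4 reads if the whole annotated exon length was used. Col5a2, the alpha 2 chain of collagen V, was at 12.8 in GL_M_6 and 7.24 in GL_M_85. Col3a1, the chain of collagen III, had its highest value, 0.565, in GL_M_30 and 0.0539 in GL_M_85.

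The other collagen chains listed were detected in part as well. Col6a3, the large alpha 3 chain of the beaded-filament collagen VI, was at 99.7 in GL_M_51, 60.1 in GL_M_36, 48.3 in GL_M_60 and 16.3 in GL_M_55, with 3.43 in GL_M_11. Its partner chains Col6a1 and Col6a2 were below 1 everywhere and above 0 only in GL_M_30, at 0.0938 and 0.0174. Col8a1, a short-chain collagen of vascular and glomerular matrix, had the highest level of any collagen in the list, 399 in GL_M_11. It was at 219 in GL_M_29, 33.6 in GL_M_75 and 17.4 in GL_M_85, with 7.10 in GL_M_47 and 3.54 in GL_M_6, and at 0.0876 or less in the other 8 cells. Col12a1, a collagen on the surface of fibrils, was at 40.2 in GL_M_36, 7.21 in GL_M_11, 1.89 in GL_M_6 and 1.69 in GL_M_85. Thus 5 of the 13 collagen chains listed were detected, each at 10 or more in at least 1 cell. Of the 7 chains outside the fibril-forming group 3 were detected (42.9%). Protein-coding genes were detected in a like share, 41.8%, and all genes in 29.2%. These counts alone do not set collagen chains apart from protein-coding genes.

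Cell by cell, 10 of 14 cells had a listed collagen chain detected, 9 had one at 10 or more and 4 had more than one at that level. GL_M_30, GL_M_65, GL_M_94 and GL_M_91 had none detected. In 0 of 14 cells were both chains of collagen I, the 3 listed chains of collagen V or the 3 of collagen VI all detected. That count follows from Col1a1, Col5a1, Col5a3, Col6a1 and Col6a2, which were not detected in any cell. Counting any value above 0, 1 cell, GL_M_30, held all listed chains of collagen I and all of collagen VI. Col1a2 and Col6a3 overlapped: each was at 10 or more in 4 cells, and 3 of these, GL_M_36, GL_M_51 and GL_M_55, were shared, which is 75% of either set. This pair had the largest overlap of all pairs among the 10 listed genes at that level in 3 or more cells, Bgn aside. It was singled out for that reason. Overlaps of like pairs among all genes were not computed, so the overlap is not shown to be unusual. GL_M_55 is also the cell with the most podocyte markers, and its Col1a2 and Col6a3 were the lowest of these sets. The part of that cell's make-up in the overlap was not tested. Col1a2 and Col8a1 shared only GL_M_85 at 10 or more, and Col6a3 and Col8a1 shared none.

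On GRCm38, the assembly that mm10 denotes, Col1a2 (ENSMUSG00000029661) lies on the plus strand of chromosome 6, from 4504814 to 4541544, and Col6a3 (ENSMUSG00000048126) on the minus strand of chromosome 1, from 90765923 to 90843971. Bgn (ENSMUSG00000031375) is on chromosome X from 73483602 to 73495933, plus strand. All 3 are protein-coding genes whose exons overlap no other annotated gene, and each value sums the whole gene. The 250 bases before the RefSeq start (GRCm38.p6) were searched, and are shown for the pair of chains that shared 3 of their 4 cells at 10 or more and for the gene detected in every cell. The Col1a2 window is printed without the 127 bases that the annotation places in its exons. The stretches are chr6:4505370-4505492, plus strand, for Col1a2, chr1:90843972-90844221, minus strand, for Col6a3 and chrX:73483351-73483600, plus strand, for Bgn. Each is written 5′ to 3′, with capitals for matches, on either strand, to the CCAAT box, the TATAAA box or the GGGCGG box.
Col1a2: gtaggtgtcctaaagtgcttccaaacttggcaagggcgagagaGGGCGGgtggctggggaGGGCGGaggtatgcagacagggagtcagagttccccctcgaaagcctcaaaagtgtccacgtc
Col6a3: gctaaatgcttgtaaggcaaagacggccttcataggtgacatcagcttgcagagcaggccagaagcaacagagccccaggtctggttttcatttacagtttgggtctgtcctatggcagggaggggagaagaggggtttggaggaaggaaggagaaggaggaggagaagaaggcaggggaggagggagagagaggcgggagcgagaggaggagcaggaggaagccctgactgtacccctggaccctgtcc
Bgn: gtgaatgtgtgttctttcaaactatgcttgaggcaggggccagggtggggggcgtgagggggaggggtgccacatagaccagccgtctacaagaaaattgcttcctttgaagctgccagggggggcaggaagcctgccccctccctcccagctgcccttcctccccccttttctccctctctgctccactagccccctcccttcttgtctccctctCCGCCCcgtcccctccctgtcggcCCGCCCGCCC
The Col1a2 stretch holds 2 matches to GGGCGG, and the part not printed holds 1 match to CCAAT, which begins 109 bases before the start. The Bgn window held 3 matches to GGGCGG on the opposite strand, of which the last 2 overlap, and the Col6a3 window held none of the 3 motifs. Of all 32851 such windows that RefSeq gives, 33.9% hold CCAAT, 12.4% TATAAA and 32.7% GGGCGG. Of the 27 listed genes with a window 9, 7 and 17 hold them in any of their windows, in that order. These genes have 33 windows, so counts per gene are not directly comparable with the shares per window. The windows of Col1a2 and Col6a3 thus shared no match to these letters, and a match or its absence says nothing of binding.

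Among the 8 proteoglycan genes Bgn was detected and the other 7 were not (12.5%, against 41.8% of protein-coding genes and 29.2% of all genes). Bgn encodes biglycan, a small leucine-rich proteoglycan that binds collagen and growth factors. Its RPKM was 2529 in GL_M_51, 1731 in GL_M_60, 1553 in GL_M_94, 1290 in GL_M_6 and 1063 in GL_M_47. It was 982 in GL_M_85, 838 in GL_M_91, 442 in GL_M_36, 411 in GL_M_65, 378 in GL_M_11, 256 in GL_M_29 and 135 in GL_M_30. The lowest cells were GL_M_75 at 56.4 and GL_M_55 at 3.24. The mean log2(RPKM + 1) was 8.70 ± 2.43 (SD, n = 14 cells of 1 mouse), and the median RPKM of 640 placed Bgn at rank 73 of all genes. Its range was 780-fold, but 44.8-fold without GL_M_55, where podocyte markers summed to 2178 against 0.427 to 536 in the other cells. The part of those markers in the low Bgn value was not tested.

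Decorin, a leucine-rich proteoglycan related to biglycan, was nowhere near that level. Dcn was listed at 0 in 13 cells and at 0.299 in GL_M_30. Lum, the fibril-spacing proteoglycan lumican, was above 0 only in GL_M_30, at 0.0378, and Ogn, osteoglycin, peaked at 0.0490 in GL_M_11. Aspn, asporin, was above 0 in 5 cells and at most at 0.0834, and Vcan, the large hyaluronan-binding proteoglycan versican, reached 0.0404. Fmod and Prelp, the genes of fibromodulin and prolargin, were listed at 0.

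**Figure D2:**
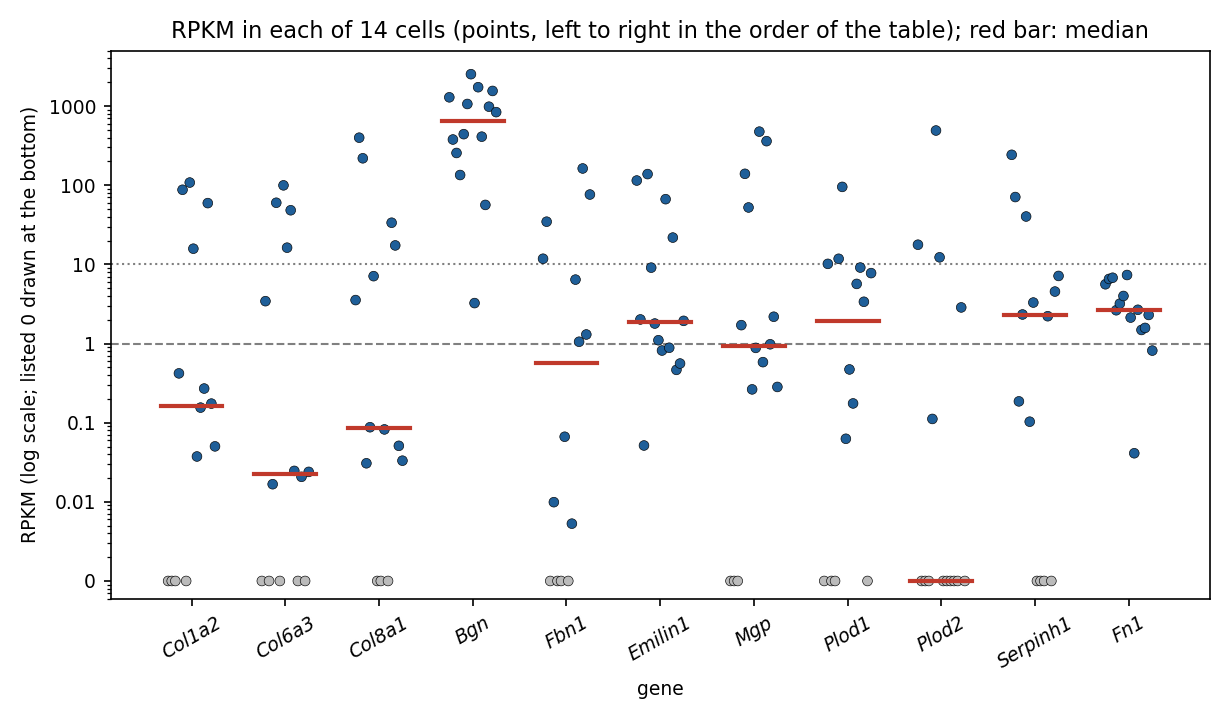
RPKM on a log scale for the 10 genes at 10 or more in 3 or more cells and for Fn1; each point is 1 of the 14 cells, grey points at the bottom are listed at 0, red bars are medians, and dashed and dotted lines mark RPKM 1 and 10. Bgn lies at 56.4 or above in all cells except GL_M_55, Fn1 never reaches 10, and each of the other genes has cells at 10 or more and cells below 1, with values in between for some, such as Plod1, Serpinh1 and Emilin1.

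Of the 10 elastic fibre genes 5 were detected in some cell, but Eln, which encodes elastin itself, reached only 0.0608, in GL_M_30. Emilin1, a glycoprotein at the interface of elastin and microfibrils, was above 0 in every cell. It was at 138 in GL_M_30, 115 in GL_M_6, 66.7 in GL_M_60 and 21.8 in GL_M_75. It lay at 9.09 in GL_M_36, between 1.10 and 2.02 in 4 further cells, and below 1 in the remaining 5, with 0.0515 in GL_M_29 the lowest. Its median was 1.86 and its mean log2(RPKM + 1) 2.62 ± 2.49 (SD, n = 14 cells of 1 mouse). Emilin1 was thus present at low level in most cells and high in 4.

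Fbn1, fibrillin 1, the main microfibril subunit, was at 163 in GL_M_85, 76.3 in GL_M_91, 34.6 in GL_M_11 and 11.8 in GL_M_6. It was at 6.42 in GL_M_65, 1.30 in GL_M_94 and 1.05 in GL_M_75, and at 0.0664 or less in the other 7 cells. GL_M_6 was the only cell with both Fbn1 and Emilin1 at 10 or more. Exons of Gm9913, annotated on the opposite strand, cover 20.1% of the Fbn1 exon length, and since the sources used here do not say whether strand was used in counting, reads of the pair cannot be told apart there. Mfap2, a microfibril-associated protein, was at 215 in GL_M_60 and at most at 0.383 elsewhere. Fbln5, fibulin 5, which is needed to assemble elastic fibres, was at 8.43 in GL_M_94 and at most at 0.0167 elsewhere, and Mfap5 reached 1.36 in GL_M_75. Fbln2 stayed at 0.749 in GL_M_36 and at 0 in the other cells.

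Among the glycoproteins Fn1 had a pattern of its own. Fn1 encodes fibronectin, the adhesive protein of the mesangial matrix. Its RPKM was 7.34 in GL_M_51, 6.78 in GL_M_29, 6.55 in GL_M_11, 5.61 in GL_M_6, 3.99 in GL_M_47, 3.19 in GL_M_36 and 2.67 in GL_M_65. It was 2.63 in GL_M_30, 2.30 in GL_M_94, 2.13 in GL_M_55, 1.58 in GL_M_85, 1.48 in GL_M_75, 0.814 in GL_M_91 and 0.0411 in GL_M_60. Fn1 was thus detected in 12 of 14 cells (57.2% to 98.2%) at a low level, 1.91 ± 0.86 in log2(RPKM + 1) (SD, n = 14 cells of 1 mouse). The range was 179-fold, and 9.02-fold without GL_M_60. Of 469 protein-coding genes detected in 12 or more cells Fn1 was the only one that never reached 10, followed by Dnajc11, with a highest value of 15.2, and Sag, with 22.4, which were named after their values were seen. That count of 1 was 2 without GL_M_30, and 0 where detection in 13 or more cells was asked. Of 807 protein-coding genes whose mean log2(RPKM + 1) lay within 0.25 of that of Fn1, Fn1 had the lowest SD, against a median SD of 2.87. The SD was computed with a pseudocount of 1 only, which compresses differences among values near or below 1. Exons of another gene, Apol7d, on the opposite strand cover 2.50% of the Fn1 exon length, and its annotated exons add up to 11685 bases. The table does not show where in the gene the reads lie.

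Mgp, matrix Gla protein, a small inhibitor of calcification, had the highest single value of the 6 listed glycoprotein genes, though its median, 0.930, lay below the 2.65 of Fn1. It was at 475 in GL_M_60, 360 in GL_M_75, 139 in GL_M_36 and 52.4 in GL_M_47, at 2.18 in GL_M_94 and 1.71 in GL_M_30, and below 1 in the other 8 cells, 3 of which were listed at 0. Thbs1, thrombospondin 1, which can activate latent TGF-beta, was at 128 in GL_M_85 and 54.1 in GL_M_47, and at most at 0.699 elsewhere. Tnc, tenascin C, was at 14.1 in GL_M_47, 12.1 in GL_M_36 and 3.81 in GL_M_65. Thbs2 was detected in GL_M_36 only, at 4.24. Postn, periostin, had 1 value above 0, of 0.108 in GL_M_30. GL_M_47 was the only cell with Mgp, Thbs1 and Tnc all at 10 or more.

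Of the 3 cross-linking enzymes 1 was detected (33.3%, against 41.8% of protein-coding genes and 29.2% of all genes). Loxl2, a lysyl oxidase-like enzyme, was at 106 in GL_M_51 and 2.99 in GL_M_55, and at most at 0.218 elsewhere. Both of these cells had Col1a2 and Col6a3 at 10 or more, but GL_M_36, which also did, had Loxl2 at 0.125. Whether Loxl2 goes with these chains was not tested. The Loxl2 values are uncertain, because 45.0% of its 50-base words also occur in transcripts annotated to other genes. Lox, the founding lysyl oxidase, reached 0.0646, and Loxl1 was listed at 0 in all cells.

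The 4 genes of collagen processing in the endoplasmic reticulum were all detected, in 1 to 8 cells each. Serpinh1, the collagen chaperone HSP47, was at 242 in GL_M_6, 70.9 in GL_M_11 and 40.3 in GL_M_36. It lay between 2.21 and 7.14 in 5 further cells and at 0.186 or less in the remaining 6. Plod1, a lysyl hydroxylase, was at 95.3 in GL_M_47, 11.8 in GL_M_36, 10.2 in GL_M_11, 9.12 in GL_M_75, 7.76 in GL_M_91, 5.67 in GL_M_65 and 3.37 in GL_M_85. Plod2, the lysyl hydroxylase that modifies collagen telopeptides, was at 491 in GL_M_47, 17.7 in GL_M_6, 12.3 in GL_M_51 and 2.86 in GL_M_94, and at 0.112 or less elsewhere. Exons of Gm38391 on the opposite strand cover 6.42% of the Plod2 exon length, and the same limit on strand holds for Thbs1, 3.43% of which Gm29233 covers. P4ha1, the catalytic alpha subunit of prolyl 4-hydroxylase, was at 128 in GL_M_36 and at most at 0.0694 in the other cells.

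These processing genes and the collagen chains were found together in some cells and apart in others. At an RPKM of 10 or more, 5 cells had a processing gene, 9 had a listed collagen chain, 4 had both and 4 had neither. GL_M_36 had the most of each, 3 processing genes and 3 chains. GL_M_47 had Plod1 and Plod2 high but no collagen chain at 10 or more, whereas GL_M_85 had Col1a2 and Col8a1 and no processing gene at that level. Prolyl 4-hydroxylase needs an alpha and a beta subunit. At least 10 was reached by an alpha subunit gene in 3 cells (P4ha1 in GL_M_36, and P4ha2 at 81.5 in GL_M_29 and 106 in GL_M_30) and by the beta subunit gene P4hb in 6, and 0 cells had both. At an RPKM of at least 1, 1 cell had both. Overlaps of like sets of other genes were not computed, so none of these counts shows a link or a separation.

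Summed over the list, the genes made up a median of 0.167% of a cell's RPKM total, from 0.00802% in GL_M_55 to 0.501% in GL_M_51. Bgn made up a median of 63.9% of that sum, from 7.58% in GL_M_55 to 98.6% in GL_M_94. Without Bgn the median share was 0.0619%, and the highest was 0.128% in GL_M_60. Beyond Bgn different genes led in different cells. Col8a1 lay above Bgn in GL_M_11, Mgp lay above it in GL_M_75, Emilin1 in GL_M_30, and Col6a3 and Col1a2 in GL_M_55, while GL_M_65 and GL_M_94 had no listed gene other than Bgn at 10 or more.

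**Figure D3:**
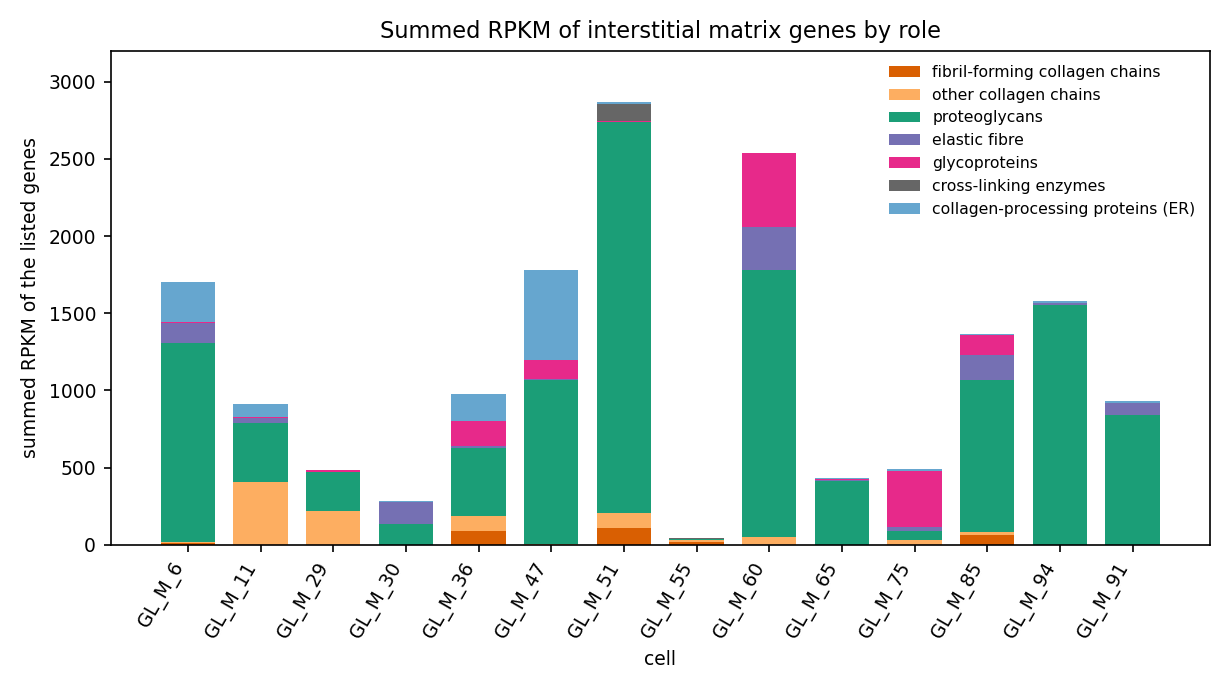
Summed RPKM of the 44 genes in each cell, stacked by role. The proteoglycan part, which is Bgn, is the tallest in most cells; GL_M_11 has a collagen part from Col8a1, GL_M_47 a processing part from Plod2, and GL_M_55 sums to only 42.8.

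The number of listed genes detected per cell had a median of 7.5, from 3 in GL_M_29 to 12 in GL_M_36. GL_M_36 also had the most detected genes of all kinds, 5277, against 1770 to 4842 in the other cells. In percent, 27.3% of the list and 22.3% of protein-coding genes were detected in GL_M_36, and 6.82% and 10.6% in GL_M_29. GL_M_60, the cell with the highest read total, had 5 listed genes and 7.63% of protein-coding genes detected, and GL_M_75, with the lowest, had 9 listed genes and 14.3% of protein-coding genes. Of the 616 values of the list 68.5% were 0, 15.3% above 0 and below 1, 7.31% from 1 to below 10, 4.55% from 10 to below 100 and 4.38% at 100 or more. For protein-coding genes the shares were 75.1%, 12.4%, 4.26%, 3.93% and 4.27%. For the 21 detected genes the highest cell held a median of 64.9% of the gene's sum over cells, against 69.7% for 8946 detected protein-coding genes. It held over 90% for 6 of the 21 genes (28.6%), Fbln5, Mfap2, P4ha1, Thbs2, Loxl2 and Plod2, against 32.1% of the detected protein-coding genes.

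Of the 23 undetected genes 14 were above 0 somewhere, and 11 of these 14 were above 0 in GL_M_30, at 0.0166 to 0.565. Col1a1, Col5a1, Col6a1, Col6a2, Dcn, Lum, Eln and Postn, 8 genes in all, were above 0 there and at 0 in the other 13 cells. The like share over all protein-coding genes was not computed, so this count is not shown to be particular to the list. Taking every value above 0 and below 1, GL_M_30 had 19 listed genes (43.2%), against 0 to 9 in the other cells. The same cell had 21.3% of all protein-coding genes in that range, against 9.58% to 15.8% elsewhere. It also held a value above 0 for 49.5% of the 2964 protein-coding genes that were never detected but above 0 somewhere, against 7.49% to 26.3% elsewhere. GL_M_30 was the highest cell for 33.7% of these 2964 genes, and for 10 of the 14 listed genes. GL_M_30 had the highest summed endothelial markers, 4129 against 8.34 to 2075 in the other cells. Of 7 smooth muscle markers, Acta2 (1.15), Tagln (1.68), Actg2 (1.20), Cnn1 (0.398) and Myh11 (0.225) had their highest values in GL_M_30, Smtn had its highest in GL_M_29 (108.5, against 2.19 in GL_M_30), and Lmod1 was listed at 0 in all cells. The summed RPKM of these markers was 6.85 in GL_M_30 and 0 to 109 in the other cells. Its read total lay between those of other cells. The part of these features in the low matrix values was not tested.

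**Figure D4:**
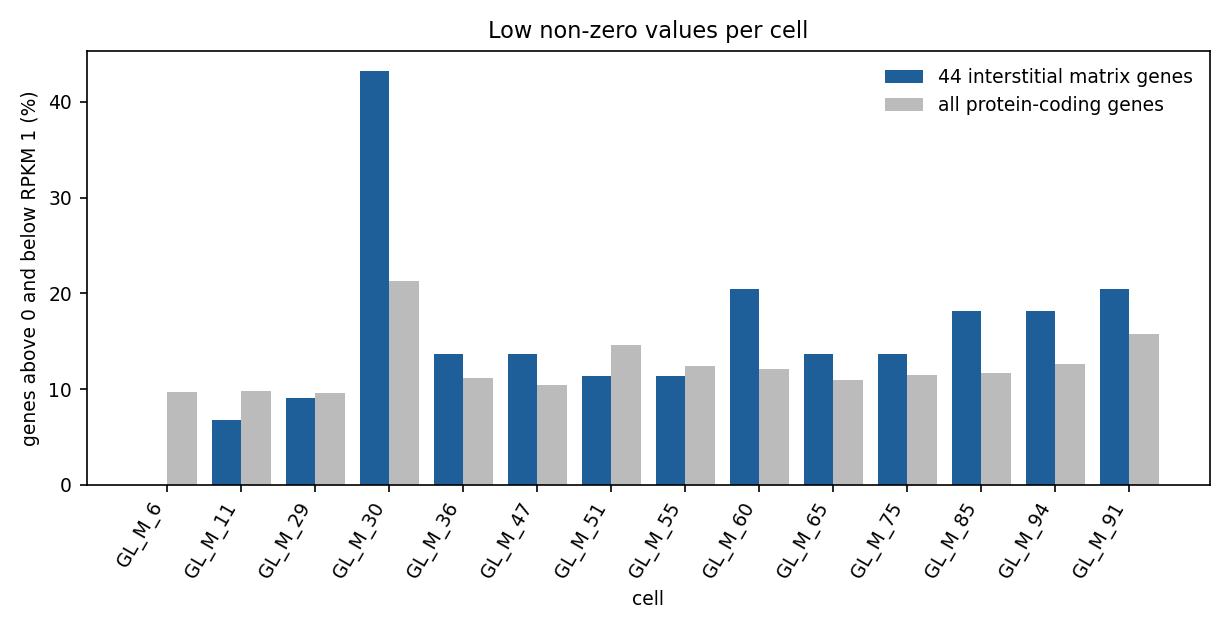
Share of genes with a value above 0 and below RPKM 1 in each cell, for the 44 listed genes (blue) and all protein-coding genes (grey). GL_M_30 has the tallest bar of both kinds, 43.2% and 21.3%.

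Of 85 genes of the same pathways outside the list, 33 were detected in some cell (38.8%), against 41.8% of protein-coding genes and 29.2% of all genes. Of 18 further collagen chains, not all of them fibrillar or fibril-associated, 3 were detected. They were Col22a1 in 6 cells, up to 17.9 in GL_M_30, Col27a1 at 1.95 in GL_M_47 and Col10a1 at 37.8 in GL_M_6. Of 24 further genes of collagen synthesis and secretion 15 were detected. Ppib, a prolyl isomerase of the endoplasmic reticulum, had a median of 117 and was at 10 or more in 11 cells, P4hb had a median of 2.65 and a highest value of 1127 in GL_M_94, and P4ha2 had a median of 0.566. Of 11 further genes listed under elastic fibres 6 were detected. The 4 of them at 10 or more in some cell were Mfap1a, Mfap1b, Mfap3 and Efemp2. The highest medians, all below 1, were those of Mfap1b (0.379), Ltbp1 (0.0293), which binds latent TGF-beta, and Mfap1a (0.0188). Mfap1a and Mfap1b are closely related copies and, despite their name, are known for a spliceosomal protein. Both are included in the counts of 6 and 33 above, which are therefore not counts of matrix genes alone. The highest single values, named after they were seen, were 251 for Mfap3 and 191 for Mfap1b, both in GL_M_11, and 106 for Efemp2, fibulin 4, in GL_M_30.

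Of 11 further proteoglycan genes Ecm2 and Tsku were detected, up to 3.96 and 3.30. Of 13 further glycoprotein genes Sparc and Ecm1 were detected, and both were high. Sparc, a collagen-binding glycoprotein, had a median of 486 and was at 10 or more in 12 cells, and it was at 0.621 in GL_M_51 and 1.87 in GL_M_55. Ecm1 had a median of 35.8 and was at 10 or more in 9 cells. Of 8 collagen receptor genes 5 were detected, led by Itgb1, which lay between 89.9 and 3145 (median 733). Itga1, its partner in the collagen-binding integrin, had a median of 22.1 and was at 10 or more in 8 cells, and Mrc2, an endocytic collagen receptor, had a median of 0.664.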

How the data were processed

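Single-cell cDNA was sequenced for 14 cells of 1 mouse. The deposited values are RPKM per Ensembl gene, made by the authors. The submitters' processing notes name TopHat2 2.0.12, HTSeq 0.6.1 and the build mm10. For the annotation release, strandedness and handling of multiply mapped reads, the sources used here give nothing. Columns were matched to cells by title, and no cell's values were identical to another's.

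Symbols and gene models came from GENCODE M21 (GRCm38). Detection was an RPKM of at least 1, and log2 levels used a pseudocount of 1. Read totals were recovered as the totals at which low values of 14953 genes with 1 annotated transcript became whole reads; 84.7% to 89.7% of values under 50 reads came within 0.02 of a whole number, and on simulated reads for these genes all 14 totals came back within 0.1 percent. Reads per gene use the union of annotated exons and are upper estimates, because the gene lengths behind the RPKM are not in the table. cDNA was amplified, so floors cover counting error only, and intervals cover the sampling of 14 cells of 1 mouse. No test, standard error or p-value was computed, since the animal is the replicate. Mean ± SD was restricted to genes that no cell lists at 0.

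All 44 genes are accounted for, with values per cell for those at 10 or more in 3 or more cells, the other pathway genes by their highest medians. The members and lists were chosen with earlier results of these data known. Fn1, and the overlaps of single cells, were singled out after their values were seen. Promoter windows of listed genes on chromosome 18, where Fbn2 and Lox lie, were left out, and RefSeq windows were found for 27 of the 44 genes. The shares over all windows had no such exclusion. Python 3.11.15, pandas 2.3.3, NumPy 2.4.6, SciPy 1.17.1 and Matplotlib 3.10.9 were used.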

Additional observations from a re-analysis of the deposited data

How the results depend on the processing

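Counts of listed genes depended mainly on the detection limit. With any value above 0, 35 genes were detected in some cell, 3 in every cell and a median of 14 per cell, in place of 21, 1 and 7.5. With an RPKM of at least 5, 0 genes were detected in every cell. The mean log2 level of the list over cells was 0.79 with a pseudocount of 1, -1.89 with 0.1, and 1.88 over those genes whose RPKM averaged 1 or more. Leaving out GL_M_30, GL_M_55 or the pair GL_M_36 and GL_M_47, or keeping only genes whose exons overlap no other gene, kept each of the counts, shares and the mean level within 1.5 times or within 1 SD of its value. The following alternatives were chosen after seeing the data. With any value above 0, 1 cell held all listed chains of collagen I and 1 all of collagen VI, and 0 did without GL_M_30. Protein-coding genes detected in all but 2 cells or more and never at 10 numbered 1, but 0 with all but 1 cell, 4 with all but 3, 11 with all but 4, and 2 without GL_M_30. At an RPKM of at least 1, 1 cell had both subunits of prolyl 4-hydroxylase. No paired analysis was possible because there is 1 group. A count of 0 of 14 cells at an RPKM of 1 or more limits only the share of cells at that level, to 23.2%, and sets no limit on cells with lower values.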
